A study of Homo sapiens with 12 samples.

Results

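Keratins and the plakin proteins that link keratin filaments to cell junctions and to each other were examined in MDA-MB-231, a human triple-negative breast cancer cell line. The members are genes with a probe set of exactly 1 annotated symbol that is KRT followed by a digit, without pseudogenes and antisense genes, together with EPPK1, PLEC, DSP, PPL and EVPL. This gave 47 keratins and 5 plakins, 52 of the 22394 genes with a probe set of a single symbol, each given by its probe set of the highest mean over 12 arrays. Cells were exposed for 48 hours to vehicle (DMSO), to 1 μM JQ1, to 3.17 μM mocetinostat or to both compounds at these doses, called the combination here. JQ1 displaces BET bromodomain proteins from acetylated chromatin, and mocetinostat (MGCD in the labels) inhibits class I histone deacetylases. RNA from 3 independent cultures per treatment was hybridized to Affymetrix Human Gene 2.1 ST arrays, and all values are log2 signals. The results hold for 1 cell line, 1 dose of each compound and 1 time point.

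Keratins are the intermediate filament proteins of epithelial cells. A type I and a type II keratin pair to form a filament, such as KRT18 with KRT8 in simple epithelia and KRT14 with KRT5 in the basal layer of stratified epithelia. Other keratins are made in the upper layers of the epidermis, in the inner root sheath of the hair follicle or in the hair shaft. Apart from KRT18, the type I genes lie in a cluster on chromosome 17, while the type II genes lie on chromosome 12. Plakins are very large linker proteins. Desmoplakin (DSP) ties keratins to desmosomes, plectin (PLEC) ties them to hemidesmosomes and to other filaments, periplakin (PPL) and envoplakin (EVPL) are precursors of the cornified envelope of the epidermis, and epiplakin (EPPK1) binds keratin bundles.

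The median log2 signal of the arrays lay between 3.58 and 3.66, and arrays of the same treatment correlated at 0.986 to 0.991 over all probe sets. For 9 of the 12 samples the free-text description names another treatment than the title and the source name do, and the latter, which match each other, were used. Of 5 markers of mesenchymal-like breast cancer cells, VIM, CD44, AXL, CAV1 and MSN, the mean signal with DMSO ranged from 9.99 to 12.23. Among 6 luminal and receptor genes, ESR1, PGR, FOXA1 and CDH1 had DMSO means of 3.07 to 3.53, below the median of all treatment means (3.61), and EPCAM and GATA3 had 6.39 and 6.68. Signals of different genes depend on their probes and were not ranked against each other. The table holds no call of whether a gene was above background. In the following a gene rose or fell where the limma p value was under 0.001 before adjustment and the groups differed 2-fold or more, called the filter here. The same filter is stated in the study's methods. Adjusted p values (Benjamini-Hochberg over all 53617 probe sets, limma) and standard errors (SE) are given with it, and a log2 change of 1 is a doubling.

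Among the keratins and plakins, KRT19, KRT15 and EPPK1 rose with both mocetinostat and the combination, KRT14 and PLEC with the combination, and KRT23, KRT32 and PPL with mocetinostat, while KRT7 rose with JQ1 and fell with the combination. JQ1 raised 1 of the 52 genes and lowered 0, where 2.14% and 4.51% of all genes rose and fell. Mocetinostat raised 6 and lowered 0, beside 7.08% and 5.50% of all genes. The combination raised 5 and lowered 1, beside 7.06% and 8.10% of all genes. The median log2 change over the 52 genes was 0.04, 0.11 and 0.07 in this order, and 0.02, −0.01 and 0.00 over all genes. Over all 6 comparisons 10 of the 52 genes changed at least once, 7 keratins and 3 plakins, and 42 did not, where 21.7% of all genes changed at least once, so the share was near that of all genes. For 27 of the 52 genes the mean of every treatment lay below the median of 3.61. In these bulk RNA samples a change in RNA per cell cannot be told apart from a change in the share of cells that make it.

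**Figure D1:**
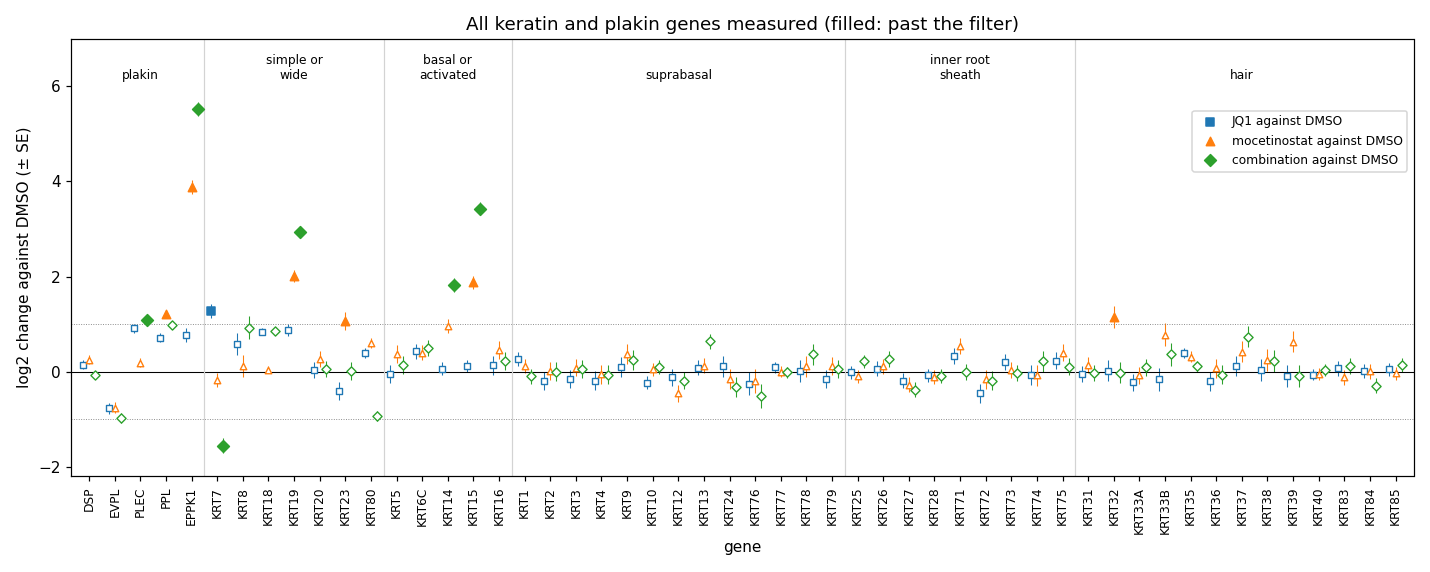
Log2 change against DMSO (vertical axis, bars are SE, 3 arrays per treatment) of the 52 genes, grouped by where each keratin is mainly made. Filled symbols passed the filter, dotted lines mark 2-fold, and EPPK1, KRT15, KRT19 and KRT14 stand highest with the combination while KRT7 stands lowest.

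KRT19, KRT15 and KRT14, type I keratins that lie close together on chromosome 17, rose with the combination. KRT19 is the smallest keratin and is made in ductal and other simple epithelia. Its signal was 9.25, 9.48 and 9.73 in DMSO, 10.38, 10.52 and 10.19 in JQ1, 11.56, 11.44 and 11.49 in mocetinostat and 12.44, 12.34 and 12.47 in combination arrays. The 4 treatments did not overlap. Mocetinostat raised KRT19 by 2.01 (4.04-fold, SE 0.13, adjusted p = 3.22e-07), and the combination raised it by 2.93 (7.64-fold, adjusted p = 1.11e-08). With JQ1 it was higher than DMSO by 0.88 (adjusted p = 4.55e-04), less than 2-fold.

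KRT15 marks basal cells and stem cells of the hair follicle. Its signal was 4.16, 3.91 and 4.46 in DMSO arrays and 4.31, 4.31 and 4.29 in JQ1 arrays, values that overlap. In mocetinostat arrays it was 6.16, 5.92 and 6.08 and in combination arrays 7.58, 7.69 and 7.55. All arrays of both treatments exceeded all DMSO and JQ1 arrays. The changes were 1.88 with mocetinostat (3.67-fold, SE 0.13, adjusted p = 6.47e-07) and 3.43 with the combination (10.8-fold, adjusted p = 3.51e-09), whereas JQ1 gave 0.12 (adjusted p = 0.632).

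KRT14, the type I keratin of basal keratinocytes and myoepithelial cells, had signals of 3.71, 3.75 and 3.58 in DMSO, 3.91, 3.70 and 3.62 in JQ1, 4.55, 4.40 and 4.99 in mocetinostat and 5.38, 5.62 and 5.49 in combination arrays. The combination arrays were above all others. KRT14 rose by 1.82 with the combination (3.53-fold, SE 0.15, adjusted p = 1.76e-06). The difference with mocetinostat was 0.97 (adjusted p = 3.66e-04), just short of 2-fold, and passed it without DMSO replicate 2 (1.00) or mocetinostat replicate 1 (1.02) or 2 (1.09) and with the title number as a block (1.04). KRT5, the type II partner of KRT14, stayed between 2.10 and 3.14 in all 12 arrays and differed from DMSO by at most 0.36. KRT14 and KRT16 have near-identical stretches in common with each other and with keratin pseudogenes, so the division of signal among them is uncertain. KRT16 means were 4.08 ± 0.44 (SD, n = 3) in DMSO, 4.21 ± 0.02 in JQ1, 4.53 ± 0.27 in mocetinostat and 4.29 ± 0.03 in combination arrays. No treatment passed the filter (adjusted p = 0.123 to 0.752 against DMSO).

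**Figure D2:**
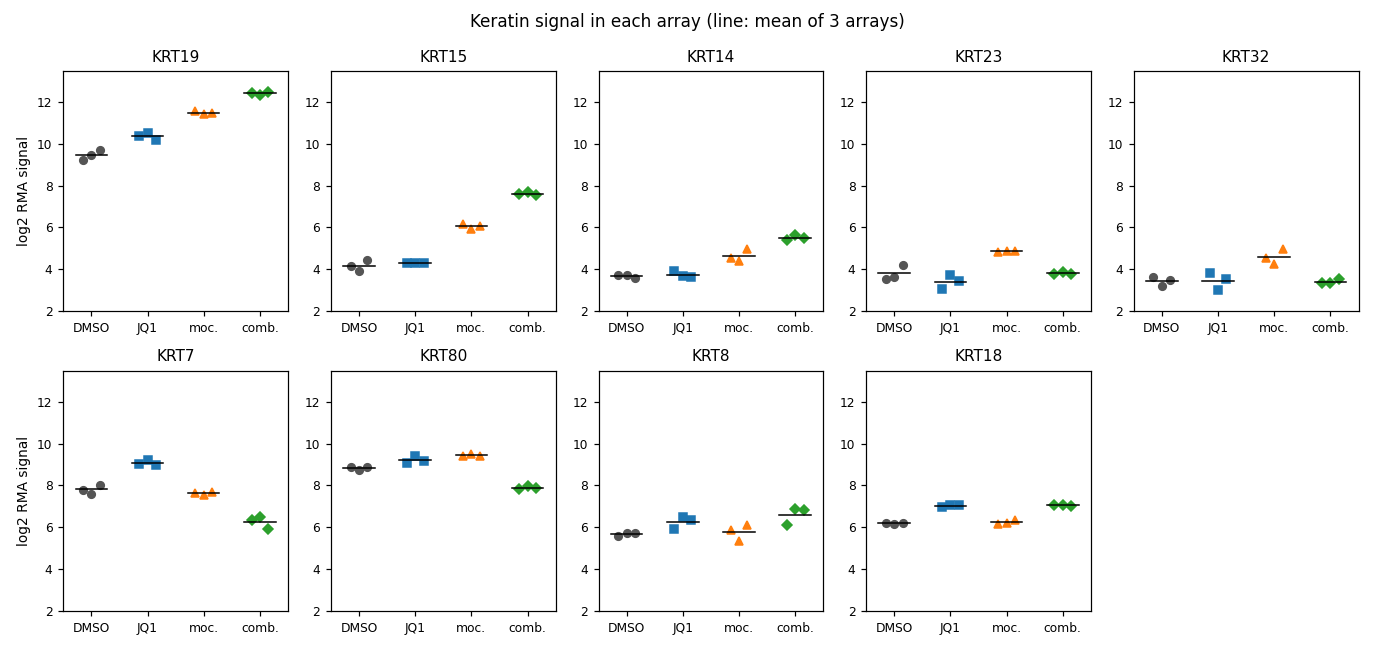
Log2 RMA signal (vertical axis) of 9 keratins in each of the 12 arrays by treatment (horizontal axis, moc. is mocetinostat and comb. is the combination), with a line at the mean of 3 arrays. KRT19, KRT15 and KRT14 are highest with the combination, KRT23 and KRT32 with mocetinostat alone, and KRT7 and KRT80 are lowest with the combination.

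KRT23 and KRT32 were higher with mocetinostat alone than with any other treatment. KRT23, a type I keratin first described in cells treated with deacetylase inhibitors, had signals of 3.53, 3.64 and 4.22 in DMSO, 3.04, 3.72 and 3.43 in JQ1, 4.83, 4.86 and 4.90 in mocetinostat and 3.78, 3.89 and 3.78 in combination arrays. It rose by 1.06 with mocetinostat (2.09-fold, SE 0.19, adjusted p = 0.00127) and differed by 0.02 with the combination. The mocetinostat arrays lay above the other 9. Without DMSO replicate 1 (0.93) or 2 (0.98), or with the arrays scaled to ribosomal protein genes (0.89) or quantile normalized again (0.94), its change with mocetinostat was below the filter.

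KRT32, a type I keratin of the hair cuticle, had 3.62, 3.18 and 3.50 in DMSO, 3.83, 3.00 and 3.54 in JQ1, 4.53, 4.24 and 4.98 in mocetinostat and 3.36, 3.32 and 3.55 in combination arrays. The mocetinostat arrays lay above the other 9. It rose by 1.15 with mocetinostat (2.22-fold, SE 0.23, adjusted p = 0.00242) and differed by −0.02 with the combination. Its mocetinostat call was lost without DMSO replicate 2 (1.02) or 3 (1.18) and without mocetinostat replicate 1 (1.17) or 3 (0.95). It was also lost with the unmoderated test (1.15) and with the arrays scaled to ribosomal protein genes (0.97). The other 12 hair keratins passed the filter in no comparison, where 21.7% of all genes passed it in at least 1. Their treatment means lay between 2.19 and 4.75. KRT35 differed by 0.39 with JQ1 (adjusted p = 0.0343, limma), less than 2-fold. KRT33B and KRT39 differed by 0.77 and 0.63 with mocetinostat, short of the filter.

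Promoter windows, 250 bases before to 50 bases after the gene start, were read from a RefSeq table (GRCh38.p14) for 33 of the 52 genes, of which only KRT32 is among the 10 that changed. Shown are KRT32 and the hair keratins on either side of it, KRT38 and KRT35, neither of which passed the filter. KRT9, which lies between KRT19 and KRT14 and did not pass it either, is also shown. Each is printed 5′ to 3′ on the minus strand, with TATAAA (the TATA box) and GGGCGG (the GC box), on either strand, in capitals.
KRT38 (chr17:41440934-41441233, minus strand): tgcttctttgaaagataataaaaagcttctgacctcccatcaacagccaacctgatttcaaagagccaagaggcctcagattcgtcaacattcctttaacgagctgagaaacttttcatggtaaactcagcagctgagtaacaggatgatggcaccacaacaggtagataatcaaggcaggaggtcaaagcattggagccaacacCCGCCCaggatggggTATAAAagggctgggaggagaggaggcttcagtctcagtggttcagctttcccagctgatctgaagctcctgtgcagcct
KRT32 (chr17:41467337-41467636, minus strand): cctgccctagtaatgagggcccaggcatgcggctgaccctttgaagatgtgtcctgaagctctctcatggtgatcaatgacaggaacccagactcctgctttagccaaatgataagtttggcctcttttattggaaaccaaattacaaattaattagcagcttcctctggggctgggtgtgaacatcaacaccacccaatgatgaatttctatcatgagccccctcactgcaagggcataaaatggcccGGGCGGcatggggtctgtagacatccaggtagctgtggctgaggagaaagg
KRT35 (chr17:41481102-41481401, minus strand): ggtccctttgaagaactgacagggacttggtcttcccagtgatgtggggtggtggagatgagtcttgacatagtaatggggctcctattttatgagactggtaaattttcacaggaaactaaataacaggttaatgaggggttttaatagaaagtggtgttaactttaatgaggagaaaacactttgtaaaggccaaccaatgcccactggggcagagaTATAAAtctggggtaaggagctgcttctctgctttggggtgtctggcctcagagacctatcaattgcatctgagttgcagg
KRT9 (chr17:41572010-41572309, minus strand): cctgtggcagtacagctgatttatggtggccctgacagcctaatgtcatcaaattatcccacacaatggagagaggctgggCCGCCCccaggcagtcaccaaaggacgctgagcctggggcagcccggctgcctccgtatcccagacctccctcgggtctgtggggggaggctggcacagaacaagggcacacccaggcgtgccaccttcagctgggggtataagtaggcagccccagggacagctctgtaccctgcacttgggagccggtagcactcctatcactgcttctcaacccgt
KRT38 and KRT35 hold TATAAA at 30 and 31 bases before the start, where a TATA box usually lies, and KRT32 and KRT9 hold none in these windows. KRT38, KRT32 and KRT9 each hold 1 GGGCGG, which begins 45, 1 and 169 bases before the start. The KRT32 match thus runs past the gene start. Over the 33 genes, 19 hold TATAAA, compared with 11.5% of all 35116 windows of this length, and 7 hold GGGCGG, compared with 45% of all windows. TGANTCA, the site of AP-1 factors, was in 0 of the 33 and in 7.71% of all windows. The counts are of genes and the percentages are of windows, so the units differ, and enrichment was not tested. A match to one of the 3 motifs cannot overlap a match to another, and the matches are a description of sequence only.

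KRT7 and KRT80, type II keratins with no other protein-coding gene between them on chromosome 12, were lowest with the combination. KRT7 is a keratin of simple and ductal epithelia. Its signal was 7.78, 7.61 and 8.03 in DMSO, 9.03, 9.21 and 9.0 in JQ1, 7.65, 7.54 and 7.70 in mocetinostat and 6.33, 6.49 and 5.94 in combination arrays. JQ1 arrays were above and combination arrays below all others, while DMSO and mocetinostat arrays overlapped. KRT7 rose by 1.27 with JQ1 (2.42-fold, SE 0.15, adjusted p = 9.17e-05), differed by −0.18 with mocetinostat (adjusted p = 0.485) and fell by 1.56 with the combination (2.94-fold, adjusted p = 7.57e-06). By the filter it was the only one of the 52 genes to rise with JQ1 and the only one to fall with the combination. A second, dimmer probe set annotated to KRT7 had means of 4.24, 5.49, 3.88 and 3.44 in the same order of treatments. Its change with JQ1 was 1.25 (adjusted p = 2.48e-04), and with the combination it differed by −0.80 (adjusted p = 0.00326), short of the filter.

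KRT80, a type II keratin of many epithelia that is found near desmosomes, had signals of 8.89, 8.72 and 8.87 in DMSO, 9.07, 9.41 and 9.18 in JQ1, 9.42, 9.50 and 9.39 in mocetinostat and 7.82, 7.95 and 7.87 in combination arrays. The combination arrays were below the other 9. Against DMSO the differences were 0.40 for JQ1, 0.61 for mocetinostat and −0.94 for the combination (SE 0.10, adjusted p = 0.0212, 8.81e-04 and 2.34e-05), each below 2-fold. Against the single treatments the combination was lower by more than 2-fold.

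KRT8 and KRT18, the pair of simple epithelia, are the keratin genes next to each other at the far end of the chromosome 12 cluster. KRT18 stood at 6.20, 6.17 and 6.22 in DMSO, 6.98, 7.06 and 7.07 in JQ1, 6.15, 6.22 and 6.33 in mocetinostat and 7.05, 7.08 and 7.03 in combination arrays. The 6 arrays that received JQ1 did not overlap the 6 that did not. KRT18 differed from DMSO by 0.84 with JQ1 and 0.86 with the combination (SE 0.08, adjusted p = 1.93e-05 and 6.50e-06), less than 2-fold, and by 0.04 with mocetinostat. KRT8 means were 5.66 ± 0.07 (SD, n = 3) in DMSO, 6.24 ± 0.30 in JQ1, 5.78 ± 0.38 in mocetinostat and 6.59 ± 0.42 in combination arrays. The differences of 0.58, 0.12 and 0.93 (SE 0.24, adjusted p = 0.135, 0.801 and 0.0106) were all short of the filter. Both genes have many processed copies in the genome, so their probe sets may not be specific.

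In all, 7 of 47 keratins passed the filter in at least 1 comparison, beside 21.7% of all genes. The other 40 passed it in none, and their differences from DMSO ranged from −0.51 to 0.93. Some of these had an adjusted p under 0.05 with less than 2-fold, such as KRT13 (0.64, adjusted p = 0.00885) and KRT37 (0.74, adjusted p = 0.0235) with the combination and KRT71 (0.54, adjusted p = 0.0412) with mocetinostat. The 13 keratins of suprabasal and differentiating layers, among them KRT1 and KRT10 of the upper epidermis, had treatment means of 2.18 to 4.01. The 9 keratins of the inner root sheath and companion layer had 2.21 to 3.40. KRT20, a keratin of intestinal and urothelial cells, had means of 3.39 to 3.65 and KRT6C, a type II keratin of activated keratinocytes, of 1.95 to 2.44. By type, 4 of 26 type I keratins rose with mocetinostat and 3 with the combination, beside 7.08% and 7.06% of all genes. With either treatment 0 of the 26 fell, where 5.50% and 8.10% of all genes fell with mocetinostat and the combination. Of 21 type II keratins 0 rose with these treatments, 0 fell with mocetinostat and 1 fell with the combination. A difference between the types was not tested.

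Keratins with large and small changes lay side by side in the clusters. KRT15 and KRT19 lie next to each other with no protein-coding gene between them, followed by KRT9, KRT14 and KRT16. With the combination the log2 changes in this order were 3.43, 2.93, 0.24, 1.82 and 0.22, and with mocetinostat 1.88, 2.01, 0.36, 0.97 and 0.45. KRT13, the keratin on the other side of KRT15, differed by 0.64 with the combination and by 0.12 with mocetinostat. At the start of the chromosome 12 cluster KRT80 and KRT7 differed by −0.94 and −1.56 with the combination, and 22 of the 27 keratins of that cluster and 25 of 27 on chromosome 17 had a value.

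**Figure D3:**
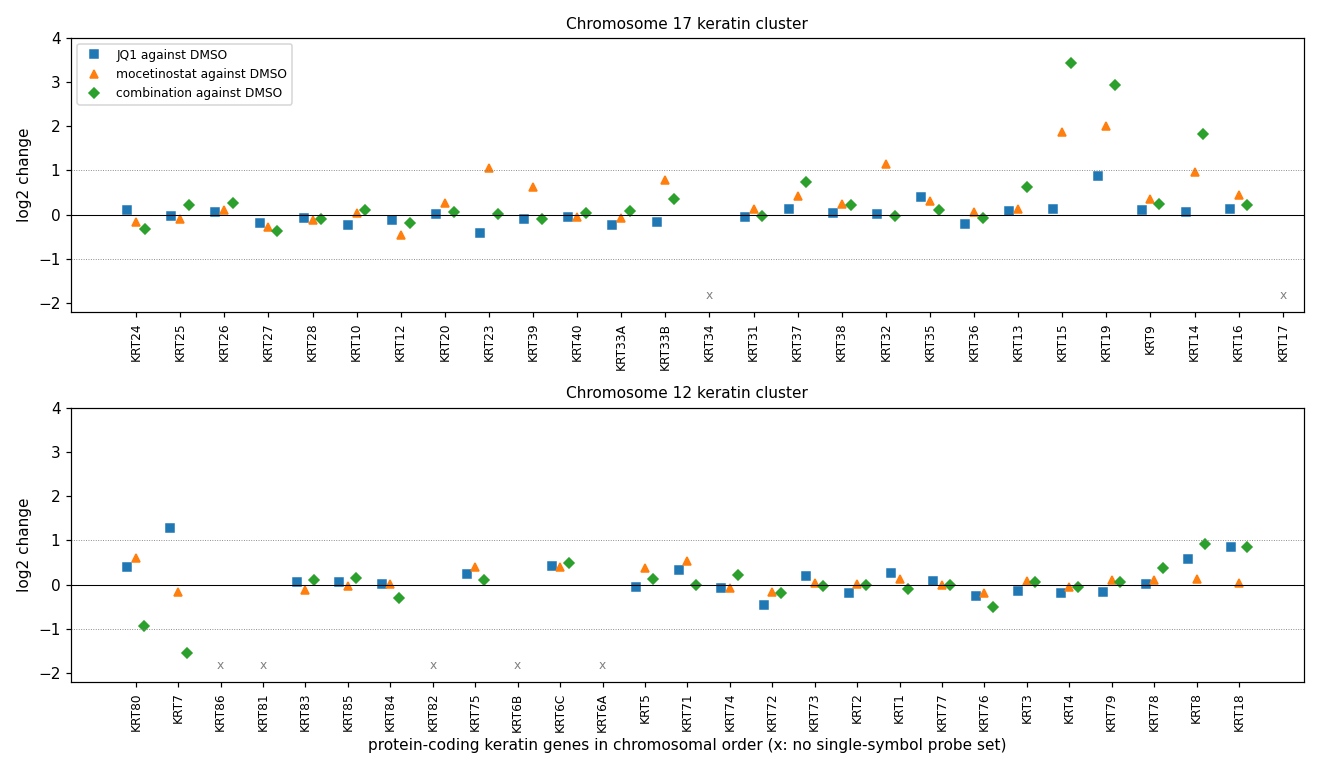
Log2 change against DMSO (vertical axis) of keratin genes in their order along chromosome 17 and chromosome 12 (horizontal axis, not to scale in bases), with dotted lines at 2-fold. KRT15, KRT19 and KRT14 near one end of the chromosome 17 cluster and KRT80 and KRT7 at one end of the chromosome 12 cluster stand out with the combination.

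Among the plakins EPPK1 changed the most. It had signals of 2.85, 3.03 and 3.19 in DMSO, 3.49, 3.80 and 4.11 in JQ1, 6.99, 6.85 and 6.86 in mocetinostat and 8.47, 8.53 and 8.66 in combination arrays, and the 4 treatments did not overlap. EPPK1 rose 14.7-fold with mocetinostat (log2 change 3.88, SE 0.15, adjusted p = 4.93e-09) and 46.2-fold with the combination (5.53, adjusted p = 2.58e-10). With JQ1 it differed by 0.78 (adjusted p = 0.00299), below 2-fold. Its DMSO signal lay below the median of 3.61, and the folds are those of the array signal.

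PLEC is the protein-coding gene next to EPPK1 on chromosome 8. It had 8.86, 8.96 and 9.13 in DMSO, 9.90, 9.90 and 9.87 in JQ1, 9.23, 9.13 and 9.14 in mocetinostat and 10.01, 10.03 and 10.18 in combination arrays. The 6 arrays that received JQ1 lay above the 6 that did not. PLEC rose by 1.09 with the combination (2.12-fold, SE 0.09, adjusted p = 3.06e-06), which was 0.70 with the arrays scaled to ribosomal protein genes and then short of 2-fold. It differed by 0.91 with JQ1 (adjusted p = 3.45e-05) and by 0.18 with mocetinostat (adjusted p = 0.213).

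PPL and EVPL, which pair with each other in the cornified envelope, differed from DMSO in opposite directions. PPL had 6.57, 6.67 and 6.78 in DMSO, 7.38, 7.35 and 7.43 in JQ1, 7.80, 7.90 and 7.94 in mocetinostat and 7.65, 7.69 and 7.64 in combination arrays. All treated arrays were above all DMSO arrays, and mocetinostat gave the highest values. It rose by 1.21 with mocetinostat (2.32-fold, SE 0.09, adjusted p = 7.93e-07), while JQ1 gave 0.72 (adjusted p = 1.07e-04) and the combination 0.99 (adjusted p = 3.18e-06), both short of 2-fold. EVPL had 6.34, 6.0 and 6.13 in DMSO, 5.46, 5.40 and 5.29 in JQ1, 5.33, 5.37 and 5.50 in mocetinostat and 5.21, 5.28 and 5.05 in combination arrays. All treated arrays lay below all DMSO arrays. The differences were −0.78, −0.76 and −0.98 (SE 0.11, adjusted p = 4.00e-04, 2.74e-04 and 2.95e-05), all below 2-fold. DSP lay between 8.21 and 8.62 in the 12 arrays and differed from DMSO by 0.15, 0.25 and −0.07 (SE 0.09, adjusted p = 0.343, 0.0625 and 0.632).

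**Figure D4:**
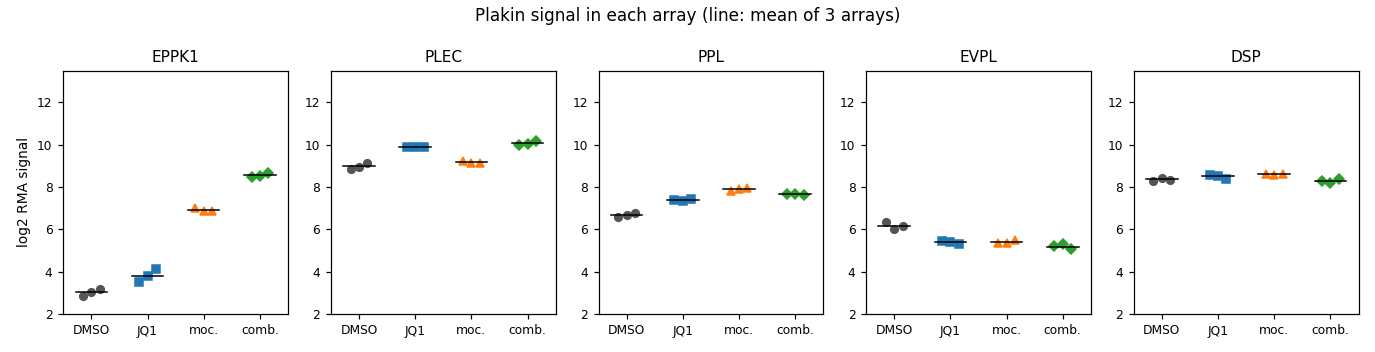
Log2 RMA signal (vertical axis) of the 5 plakin genes in each of the 12 arrays by treatment (horizontal axis, moc. is mocetinostat and comb. is the combination), with a line at the mean of 3 arrays. EPPK1 climbs from about 3.02 with DMSO to 8.55 with the combination, PLEC is higher in the arrays with JQ1, and DSP is level.

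The combination was compared with each compound alone to see what the second compound added. Against JQ1 alone 4 of the 52 genes were higher and 2 lower, beside 4.46% and 3.23% of all genes. EPPK1 (4.75, SE 0.15, adjusted p = 2.53e-09), KRT15 (3.30), KRT19 (2.05) and KRT14 (1.75) were higher with the combination than with JQ1. KRT7 was lower by a log2 change of −2.83 (7.12-fold, adjusted p = 1.70e-07) and KRT80 by −1.34 (adjusted p = 3.23e-06). The second KRT7 probe set gave −2.05 (adjusted p = 4.85e-06). Against mocetinostat alone 2 genes were higher and 4 lower, beside 1.22% and 2.68% of all genes. EPPK1 exceeded mocetinostat alone by 1.65 (3.14-fold, adjusted p = 1.89e-05) and KRT15 by 1.55 (2.93-fold, adjusted p = 1.10e-05). KRT80 (−1.55), KRT7 (−1.38), KRT32 (−1.17) and KRT23 (−1.04) were lower with the combination than with mocetinostat (adjusted p = 2.05e-06, 7.81e-05, 0.00427 and 0.00303). The KRT32 difference lost its call without mocetinostat replicate 1 (−1.20) or 3 (−0.97), without combination replicate 1 (−1.15) or 2 (−1.13) and with the unmoderated test (−1.17). The KRT23 difference lost it with the unmoderated test and with a further quantile normalization (−0.98). For KRT7 the second probe set gave −0.44 (adjusted p = 0.118). KRT19 (0.92) and PLEC (0.90) differed between the combination and mocetinostat by less than 2-fold. These comparisons share arrays with one another and with those against DMSO.

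The log2 change of the combination was also set against the sum of the log2 changes of JQ1 and mocetinostat. Of the 52 genes 1 lay above the sum and 2 below it by the filter, beside 3.38% and 2.91% of all genes. KRT7 departed by −2.65 (SE 0.21, adjusted p = 1.25e-05), with single changes of 1.27 and −0.18, and its second probe set by −1.69 (SE 0.24, adjusted p = 7.44e-04). KRT80 departed by −1.95 (SE 0.15, adjusted p = 8.72e-06), with single differences of 0.40 and 0.61. KRT15 departed by 1.43 (SE 0.18, adjusted p = 4.05e-04). EPPK1 (0.88, SE 0.21, adjusted p = 0.0193), KRT14 (0.78, SE 0.21) and PPL (−0.94, SE 0.12, adjusted p = 4.22e-04) departed by less than 2-fold. The DMSO signal of EPPK1 lay below the median of 3.61 with no call of detection, so its departure holds for the array signal only. KRT32 departed by −1.19 (SE 0.32, adjusted p = 0.0352), short of the p of the filter. KRT19 (0.04, SE 0.18), KRT18 (−0.02, SE 0.11) and PLEC (0.00, SE 0.13) showed no departure past the filter.

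**Figure D5:**
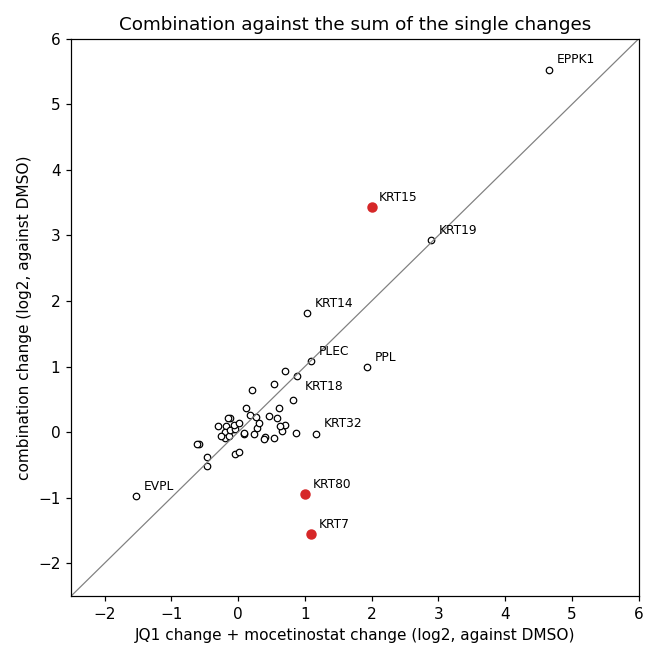
Combination change against DMSO (vertical axis, log2) and the sum of the JQ1 and mocetinostat changes (horizontal axis, log2) for the 52 genes, with a line of equality. Filled points passed the filter for the departure, with KRT7 (−2.65) and KRT80 (−1.95) below the line and KRT15 (1.43) above it.

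Genes that work with keratins and plakins were read from lists chosen with earlier results of these arrays known. Of all genes, 2.14%, 7.08% and 7.06% rose and 4.51%, 5.50% and 8.10% fell with JQ1, mocetinostat and the combination. Whether any list, here or in the next paragraph, differed from all genes was not tested. Of 6 measured genes of other plakins and hemidesmosomes, 0, 2 and 4 fell in the order JQ1, mocetinostat and combination and 0 rose, with medians of −0.18, −0.46 and −1.36. With the combination these were ITGB4, the integrin that binds plectin (−2.32, SE 0.11), the plakins MACF1 (−1.83, SE 0.10) and DST (−1.51, SE 0.09), and ITGA6, the partner of ITGB4 (−1.21, SE 0.10). Of 12 other desmosome genes, 1, 0 and 0 rose and 0, 1 and 1 fell. PKP2, a plakophilin, rose with JQ1 (1.04, SE 0.09), PKP3, another plakophilin, fell with mocetinostat (−1.13, SE 0.22) and the desmosomal cadherin DSG2 fell with the combination (−1.28, SE 0.09). Of 15 other intermediate filament genes 2 fell with every treatment, the nuclear lamins LMNB1 (−2.82, −3.73 and −3.45, SE 0.13) and LMNB2 (−1.18, −1.44 and −1.49, SE 0.10). DES, the filament protein of muscle, rose with mocetinostat (1.84, SE 0.22). VIM, the filament protein of mesenchymal cells, differed by −0.22, −0.35 and 0.03.

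Of 19 measured cornified envelope genes 1, 4 and 2 rose and 0 fell. With the combination these were FLG, which bundles keratins in the epidermis (4.64, SE 0.10, and 6.26 with mocetinostat alone), and CNFN, a small envelope protein (1.91, SE 0.12). IVL, the defining envelope precursor, had means of 2.60 to 2.98 and did not change. Of 16 measured transcription factors and splicing factors of epithelial cells, 0, 4 and 3 rose and 1, 0 and 1 fell. The combination raised GRHL1 (2.24, SE 0.11), ELF3 (2.23, SE 0.17) and GRHL3 (1.51, SE 0.24) and lowered EHF (−2.69, SE 0.09), which differed by −0.42 and 0.16 with the single treatments. Markers of the cell line moved beside the keratins. Of the 5 mesenchymal markers 0, 2 and 4 fell with JQ1, mocetinostat and the combination, by up to −2.17 for MSN with the combination. VIM did not fall with the combination (0.03). The mean log2 signal over the 5 genes lay between 10.98 and 11.03 in DMSO arrays and between 9.81 and 9.87 in combination arrays. Over the 6 luminal and receptor genes the mean was 4.246 to 4.475 with DMSO and 4.047 to 4.095 with the combination. With JQ1 this luminal mean was 3.839 to 3.941, and with mocetinostat 4.535 to 4.749. Of the 6 luminal and receptor genes, CDH1 rose with mocetinostat (2.78, SE 0.20), EPCAM fell with JQ1 (−1.66) and the combination (−1.03), and GATA3 fell with mocetinostat (−1.72) and the combination (−2.02). Their part in the keratin and plakin changes was not tested.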

How the data were processed

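The authors deposited log2 signals that the labels credit to RMA, which corrects the background, equalizes the distributions of the arrays and summarizes probe sets. The version, the probe files and a genome build are not given in the sources used here. The 53617 probe sets were used without further normalization or filtering, and a change shared by most transcripts would not show. Symbols came from a probe table in which 23870 probe sets have 1 symbol, 1848 have several and 27899 are unnamed here, and all 52 symbols match RefSeq. For 8 keratins of the class list (KRT6A, KRT6B, KRT17, KRT34, KRT81, KRT82, KRT86 and KRT222) no probe set of 1 symbol was listed, and these were not analysed here. Using limma, the 12 arrays were fitted together (limma 3.58.1, R 4.3.3) with 1 mean per treatment, leaving 8 residual degrees of freedom and a prior of 3.10. The filter required p under 0.001 before adjustment with a difference of 2-fold or more, and 6 comparisons were made. The largest adjusted p among all probe sets past it was 0.0144. The fit was tested on simulated data. The number of arrays limits the precision.

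The members and lists were chosen with earlier results of these data known. The genes named are the plakins, fixed simple and basal keratins, and every keratin past the filter in any comparison. Alternatives left out each array, fitted only the treatments compared, added the replicate number or the number in each title as a block, changed the moderation, scaled the arrays to 47 ribosomal protein genes, repeated quantile normalization, left out dim probe sets, changed the threshold or took the dimmest probe set of a gene.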

Additional observations from a re-analysis of the deposited data

Results flagged for a closer look

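By the filter, the change on adding JQ1 differed with and without mocetinostat for 3 of 47 keratins. Of these 1 lay above the sum of the single changes and 2 below it, where 3.38% and 2.91% of all genes did. At an adjusted p under 0.05 with no minimum fold (limma), 2 keratins lay above the sum and 5 below it. Of all genes 8.08% and 9.77% did so at that threshold. The difference was measured as the combination change minus both single changes (log2). It was 1.43 for KRT15 (means 4.18, 4.30, 6.05 and 7.61 with DMSO, JQ1, mocetinostat and the combination), −2.65 for KRT7 (7.81, 9.08, 7.63 and 6.25) and −1.95 for KRT80 (8.83, 9.22, 9.43 and 7.88). Adding JQ1 moved KRT7 by 1.27 in DMSO-treated cells and by −1.38 in mocetinostat-treated cells.

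Probe sets of keratin symbols outside the 52 genes were also read. They were 12 of pseudogenes, 2 of antisense genes, 3 with several symbols and 1 second probe set. By the filter 6 of them were above DMSO with at least 1 treatment. Of all genes 2.14%, 7.08% and 7.06% rose with JQ1, mocetinostat and the combination. These shares are per treatment and count genes, not probe sets, and a difference was not tested. The pseudogene probe sets KRT18P10, KRT18P49 and KRT18P54 rose by 1.49, 1.11 and 1.08 with JQ1, where KRT18 itself differed by 0.84. KRT18P10 also rose with the combination (1.32). KRT16P2 rose by 1.04 with the combination. The probe set of KRT34 and LOC100653049, in the hair keratin group of chromosome 17, rose by 1.75 with mocetinostat (adjusted p = 2.71e-05, limma) and differed by 0.66 with the combination. The second KRT7 probe set rose by 1.25 with JQ1.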

How the results depend on the processing

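Of 28 gene comparisons past the filter, 21 kept their call and direction under all 22 alternatives tried, and 0 reversed. The exceptions, KRT23, KRT32, KRT7 and PLEC, are given with their values above, and the calls of KRT7 ended only with its dimmer probe set. Leaving out 1 array at a time, the number of the 52 genes higher and lower was 1 to 2 and 0 to 0 for JQ1 against DMSO, 5 to 7 and 0 to 0 for mocetinostat, 5 to 6 and 1 to 2 for the combination, 4 to 4 and 2 to 2 against JQ1, 2 to 3 and 3 to 5 against mocetinostat, and 1 to 2 and 2 to 3 for the departure. JQ1 gave 2 without DMSO replicate 3 (KRT19, 1.00). The number lower with the combination was 2 without DMSO replicate 2 or combination replicate 2 (EVPL, −1.06 and −1.03), and the number above the sum was 2 without JQ1 replicate 3.

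Before scaling, the 47 ribosomal protein genes had median log2 changes of 0.12, 0.17 and 0.32 with JQ1, mocetinostat and the combination. Of these genes 27 were higher with the combination at an adjusted p under 0.05 (limma), beside 20.3% of all genes. Scaling to them moved the median change of all genes by −0.16, −0.18 and −0.38 for JQ1, mocetinostat and the combination. It moved the number lower with the combination from 1 to 3 (with EVPL, −1.36, and KRT80, −1.33). That number was 2 with a further quantile normalization (EVPL, −1.01) and 0 with the dimmer KRT7 probe set, and the unmoderated test gave 2 in place of 4 genes lower than with mocetinostat. At an adjusted p under 0.05 with no minimum fold, 8 and 1 genes were higher and lower with JQ1, 10 and 1 with mocetinostat, 11 and 3 with the combination, 6 and 2 against JQ1, 7 and 5 against mocetinostat, and 4 and 7 for the departure. Of all genes 13% and 14.1%, 20.2% and 18.2%, and 20.3% and 21.2% passed that threshold with the 3 treatments, 14.8% and 16.2% against JQ1, 8.97% and 13.2% against mocetinostat, and 8.08% and 9.77% for the departure.

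Samples with the same replicate number did not deviate together (18 pairs, correlations −0.09 to 0.04). With the replicate block 6 genes rose with mocetinostat, 5 rose and 1 fell with the combination, and 3 lay below the sum. In an alternative chosen after seeing the data, arrays that share the number in the sample title were compared with each other, and the differences of called genes lay within 0.43 of the values over all arrays. The largest gap was for KRT32 with mocetinostat (1.58, and 1.15 over all arrays). The title numbers are not balanced over the treatments, so few arrays enter. JQ1 against DMSO rested on 1 array against 1, and mocetinostat against DMSO on 2 against 1, all of number 5. The directions of these differences are no separate evidence, since the genes were chosen as called on the same arrays. For the departure no fit of fewer treatments was possible. Signals near the low end of the scale limit what can be seen for 27 of the 52 genes.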
